A study of Mus musculus with 5 samples.

Results

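Sox2 progenitors of the developing mouse cerebellum were split into a cycling and a non-cycling side, and the sides were compared library by library. A cell counted as a Sox2 progenitor when Sox2 and Msx3 were detected and Barhl1 was not. Sox2 and Msx3 are transcription factors of neural progenitors and of the dorsal neural tube, and Barhl1 marks the granule cell lineage. The cycling side had both Mki67 and Top2a detected and the non-cycling side had neither, where detected means a value above 0. The rule found 886 member cells among 6987 cells of the series, 427 cycling and 459 non-cycling. A further 270 progenitors had exactly 1 of the 2 gate genes and were described separately. The sides were chosen from measured values, so the names cycling and non-cycling stand for the rule, and Sox2, Msx3, Barhl1, Mki67 and Top2a were not tested.

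The cells come from the 4 libraries titled RL, which are 2 libraries titled e14 and 2 titled e13, all of mouse cerebellum profiled with 10x Chromium 3′ kits. RL e13 replicate 2 carries e14 in its age tag. All 4 titles also carry the letters UT, whose meaning the titles do not give. RL e14 replicate 1 was matched to the e14 title without a number, because the other e14 title carries the number 2. Strain, genotype, sex, pooling of embryos and dissection are not stated in the labels, and nothing says that the libraries come from separate animals. The p-values therefore reflect only how far these libraries vary, and that variation may be technical. RL e14 replicate 1 gave 45 cycling and 50 non-cycling cells, RL e14 replicate 2 gave 19 and 53, RL e13 replicate 1 gave 203 and 190, and RL e13 replicate 2 gave 160 and 166. The 19 cells are 1 fewer than the planned minimum of 20 cells per profile, and counts are given below with and without that library.

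The dorsal germinal zone of the cerebellum, the rhombic lip, holds progenitors that divide at the ventricular surface and send out glutamatergic neurons, next to a ventricular zone that makes GABAergic neurons and glia. Notch signalling, read out by Hes genes, holds such cells in the progenitor state, while proneural factors and inhibitors of cyclin-dependent kinases accompany the exit from the cycle. Mki67 and Top2a are made mostly from S phase to mitosis, so a cell without them can be in G1, in early S phase or outside the cycle. The word non-cycling below does not tell these states apart.

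Promoters of genes of G2 and mitosis commonly carry a CHR element and CCAAT boxes, which bind the complexes that time these genes. Both gate genes and Hes5 are shown from RefSeq (GRCm38.p6, the mm10 assembly), 250 bases before to 50 after the start, read along the gene. The first 2 carry the split. The capitals in Top2a (chr11:99024140-99024439, minus strand) and Mki67 (chr7:135716330-135716629, minus strand) mark TTTGAA or TTTCGAA and CCAAT on either strand. Hes5 (chr4:154960673-154960972, plus strand) is shown because it is the Notch target with the steadiest difference below, and its capitals mark TGGGAA, the core letters bound by the Notch partner Rbpj, on either strand.
Top2a: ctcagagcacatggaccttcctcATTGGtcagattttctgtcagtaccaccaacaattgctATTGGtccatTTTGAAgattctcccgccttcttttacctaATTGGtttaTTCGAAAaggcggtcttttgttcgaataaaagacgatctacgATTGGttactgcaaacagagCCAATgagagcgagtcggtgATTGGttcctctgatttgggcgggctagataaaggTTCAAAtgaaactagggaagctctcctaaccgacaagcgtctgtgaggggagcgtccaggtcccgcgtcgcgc
Mki67: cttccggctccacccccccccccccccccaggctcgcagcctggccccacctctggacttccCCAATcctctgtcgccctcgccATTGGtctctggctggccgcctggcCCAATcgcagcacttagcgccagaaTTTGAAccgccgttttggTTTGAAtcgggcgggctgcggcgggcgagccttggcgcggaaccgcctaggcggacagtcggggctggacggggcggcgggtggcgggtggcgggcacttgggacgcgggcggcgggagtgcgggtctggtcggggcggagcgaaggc
Hes5: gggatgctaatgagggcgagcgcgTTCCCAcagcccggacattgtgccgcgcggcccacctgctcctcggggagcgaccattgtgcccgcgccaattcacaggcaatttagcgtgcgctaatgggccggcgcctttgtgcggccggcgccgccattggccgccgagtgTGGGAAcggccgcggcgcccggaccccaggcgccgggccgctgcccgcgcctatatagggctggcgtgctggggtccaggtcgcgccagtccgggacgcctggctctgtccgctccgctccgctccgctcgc
CHR-like letters stood in 18.5% of all 32851 promoters of this length and in 18 of 25 promoters of the G2 and M genes with an entry, Mki67 and Top2a included. Both CHR-like letters and CCAAT stood in 7.23% of all promoters and in 15 of those 25. TGGGAA stood in 25.6% of all promoters. A match of letters is a description and not evidence of binding.

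The gate split the cells by depth as well as by cycle. Median UMIs per cell were higher on the cycling side in 4 of 4 libraries. They were 15794 against 12090 in RL e14 replicate 1 and 19528 against 12947 in RL e14 replicate 2. They were 21477 against 17326 in RL e13 replicate 1 and 18573 against 13552 in RL e13 replicate 2. The ratio of medians was 1.36 ± 0.115 (SD, n = 4; p = 0.12 by an exact sign-flip permutation, two-sided, which is the floor for 4 pairs). Values below are scaled per cell to UMIs per 1000000 (CPM). The fit was repeated with cells thinned to 8000 UMIs before gating and with the sides matched on depth. Thinning left out the 109 cells of the RL libraries that had fewer than 8000 UMIs. Across the whole series, 6 cell barcodes occurred in 2 libraries, and 3 member cells carried one of them.

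The cycling side made up 47.4% of the members of RL e14 replicate 1 (95% Wilson interval 37.6 to 57.3) and 26.4% of RL e14 replicate 2 (17.6 to 37.6). It made up 51.7% of RL e13 replicate 1 (46.7 to 56.6) and 49.1% of RL e13 replicate 2 (43.7 to 54.5). Intervals cover counting error only. RL e14 replicate 2 stood below the other libraries. By title the share was 36.9% ± 14.8 at e14 and 50.4% ± 1.82 at e13, a difference of 13.5 percentage points that the spread between libraries does not resolve (SD, 2 libraries each; p = 0.33 by an exact permutation, two-sided, which is the floor of this design). After thinning the shares were 38.6%, 15.6%, 40.9% and 38.6% in the same order of libraries.

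The label was checked against markers. Gdf10, a secreted factor of radial glia, was detected in 92.3% ± 6.32 of cycling and 83.3% ± 6.10 of non-cycling cells, against 2.91% of 692 differentiating cells without the gate genes (median 16569 UMIs). Shares of differentiating cells are means of 3 libraries, and those of members are means of 4. Atoh1 was detected in 60.2% of the differentiating cells, against 22.7% ± 11.4 of cycling and 24.1% ± 13.5 of non-cycling members, so this background is largely Atoh1-positive. Wls, which is needed to secrete Wnt proteins, was detected in 78.7% ± 9.33 and 79.6% ± 9.59, against 20.7%. Olig3, a factor of the early rhombic lip, was detected in 18.8% ± 22.1 and 19.6% ± 24.1, against 15.3% of differentiating cells. By library, in the order used above, Olig3 was detected in 4.44%, 5.26%, 51.2% and 14.4% of cycling cells. In non-cycling cells the Olig3 shares were 6%, 3.77%, 55.3% and 13.3%, so the means rest on RL e13 replicate 1. Its level was 56.6 and 93.3 CPM on the cycling and non-cycling side of RL e13 replicate 1 and at most 12.3 CPM on either side of the other libraries. The members are therefore mostly Gdf10-positive progenitors, and the Olig3 level rests on RL e13 replicate 1. Summed CPM of 7 microglial genes reached at most 2.93, of 6 endothelial genes 6.29, of 5 meningeal genes 7.65 and of 5 oligodendrocyte lineage genes 18.9. The 5 red blood cell genes summed to between 6.03 and 79.6 CPM on the cycling side and between 7.25 and 59.3 on the other. Cldn5 and Flt1 of the endothelial list and Alas2 of the red blood cell list were at 0 in every profile. The 8 granule lineage genes summed to between 18.8 and 131 CPM on the cycling side and between 46.6 and 145 on the other.

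Some non-cycling cells had S phase or G2 and M genes detected, at full depth in shares near those of differentiating cells. At least 2 of 9 S phase genes were detected in 95.6% ± 4.39 of cycling and 56.1% ± 15 of non-cycling cells, against 49.9% ± 8.94 of the differentiating cells. By library the non-cycling share was 52.0%, 37.7%, 73.2% and 61.4% in the order used above, while the background is a mean of 3 libraries. At least 2 of 17 other G2 and M genes were detected in 97.0% ± 5.01 and 28.7% ± 6.09, against 25.0% ± 6.14. At 8000 UMIs the non-cycling side stood at 46.9% ± 10.4 for S phase and 23.8% ± 3.92 for G2 and M, against 31.3% ± 5.06 and 12.1% ± 0.282. The sides were gated again after thinning, while the differentiating cells were chosen at full depth. The groups at 8000 UMIs are thus not gated alike, and the excess over differentiating cells was not tested.

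Genes of the cycle lists behaved as the gate requires, which is a description and no finding. All 25 G2 and M genes tested were higher on the cycling side, with a median log2 difference of 4.26, and 22 of 26 S phase genes were higher, with a median of 1.22, where 11.4% of all genes tested were higher. Nusap1, a mitotic spindle protein, stood at 499 CPM against 5.14, and Cdk1, the mitotic kinase, at 362 against 12.5. Pcna, the sliding clamp of DNA replication, stood at 115 against 48.6. Levels of the gate genes were 536 CPM for Mki67 and 1016 for Top2a on the cycling side and 0 on the other by construction. Sox2 stood at 533 against 572 CPM. Msx3 stood at 460, 319, 472 and 432 CPM on the cycling side and at 819, 819, 482 and 630 on the other in the order of libraries used above. The part of depth in the Msx3 difference was not tested.

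Past the cycle, the comparison asked which fate and signalling genes differ between the sides. Of 8365 genes tested, 953 (11.4%) were higher and 655 (7.83%) were lower on the cycling side (limma with library as a block, Benjamini-Hochberg adjusted p under 0.05). Outside the cycle lists 7980 genes were tested, of which 619 (7.76%) were higher and 651 (8.16%) were lower. Without RL e14 replicate 2, 684 were higher and 685 lower, and of the 651 lower genes 523 remained. Counts outside the lists moved to 383 and 374 without RL e13 replicate 1 and to 389 and 352 without RL e13 replicate 2. Thinning left 256 higher and 216 lower, with 10 cycling cells in RL e14 replicate 2. Cycle genes took 8.13% to 8.52% of all UMIs on the cycling side and 3.32% to 3.66% on the other, and rescaling without them moved the split to 833 higher and 458 lower, so small differences near 0 depend on the scaling.

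Among 65 named genes past the threshold, 25 were higher and 40 lower. Of these, 17 higher and 14 lower genes stayed past it with each library left out, after thinning and after matching on depth. The lower set was Hes5, Sox9, Hes6, Mfng, Mxd4, Kdm7a, Trp53inp1, Miat, Tgfb2, Idnk, Dpysl4, Tubb3, Zfp36l1 and Chd7. Of the higher set, 10 were the highest genes outside the lists, described below, and Cdkn2c, Ezh2, Uhrf1, Dnmt1 and Arl6ip1 are cycle genes that only describe the gate. The other higher genes were Cdkn2d and Fabp5.

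**Figure D1:**
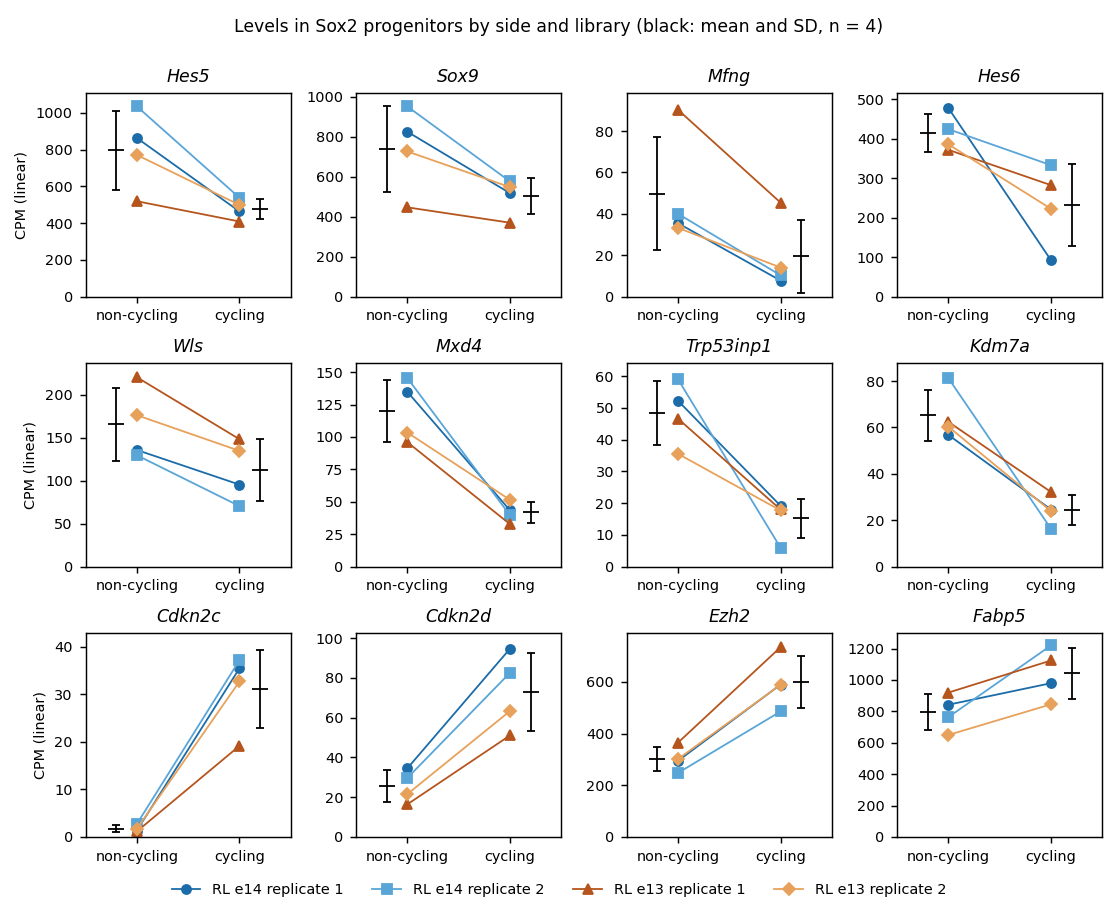
Levels of 12 genes in CPM on a linear axis in non-cycling and cycling Sox2 progenitors, where each line joins the 2 sides of 1 library and black marks give the mean and SD of 4 libraries. All lines slope down for the first 8 genes and up for Cdkn2c, Cdkn2d, Ezh2 and Fabp5, and the Mxd4, Trp53inp1 and Kdm7a levels of the sides do not overlap.

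Of the Notch pathway genes tested, Hes5, Mfng and Hes6 fell in cycling progenitors. Hes5, a repressor that Notch switches on and that holds progenitors undifferentiated, lies at chromosome 4, 154960923 to 154962371. It stood at 463, 538, 408 and 499 CPM in cycling cells of RL e14 replicate 1, RL e14 replicate 2, RL e13 replicate 1 and RL e13 replicate 2. It stood at 863, 1035, 519 and 771 CPM in non-cycling cells of the same libraries. Every library was lower on its cycling side, although the ranges overlap because RL e13 replicate 1 was low on both sides. The log2 difference was -0.70 ± 0.09 (SE, limma adjusted p = 0.00022), and it stayed past the threshold in all 23 alternatives. Mfng, a glycosyltransferase that modifies Notch receptors, stood at 7.73, 10.3, 45.4 and 14 CPM against 35.5, 40.0, 90.3 and 33.2, in the same order of libraries. It was lower in every library (log2 difference -1.29 ± 0.18, limma adjusted p = 0.00041). Hes6, which opposes Hes activity and accompanies neurogenesis, stood at 91.7, 333, 282 and 222 CPM against 478, 424, 372 and 386, with no overlap. Its log2 difference was -0.96 ± 0.26 (limma adjusted p = 0.024), and RL e14 replicate 1 contributed the widest gap. Without differentiating cells it was -0.79 and lost the threshold (limma adjusted p = 0.077).

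Of 18 Notch pathway genes tested, 3 fell, 1 rose and 14 did not pass, with a median log2 difference of -0.19 against -0.03 over all genes tested, of which 7.83% were lower and 11.4% higher. The riser was Nrarp, a feedback inhibitor of Notch (60.5 against 43.4 CPM, log2 difference 0.47, limma adjusted p = 0.029), whose list count went to 0 higher without RL e14 replicate 1, without RL e13 replicate 1 and without RL e13 replicate 2. Hes1, the other main Hes effector, was not past the threshold (83.0 ± 28.6 against 92.7 ± 31.8 CPM, log2 difference -0.15, 95% interval -0.37 to 0.08). The receptor Notch1 (log2 difference -0.26, interval -0.49 to -0.03, limma adjusted p = 0.11) and the ligand Dll1 (-0.96, interval -1.94 to 0.03, limma adjusted p = 0.17) missed it. Dll1 stood at 0, 50.6, 23.0 and 11.1 CPM in cycling and 24.4, 20, 62.0 and 30.9 in non-cycling cells, so RL e14 replicate 2 went the other way.

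Stem cell and glial genes moved in both directions, with more lower. Of 21 neural stem cell factors tested, 5 fell and 1 rose, where 7.83% of all genes tested were lower and 11.4% higher. Sox9, a factor of neural stem cells and gliogenesis (chromosome 11, 112782224 to 112787760), stood at 517, 576, 370 and 548 CPM in cycling cells. It stood at 825, 951, 446 and 726 CPM in non-cycling cells and was lower in every library. The log2 difference was -0.52 ± 0.08 (limma adjusted p = 0.00066) and stayed past the threshold in 22 of 23 alternatives. Zfp36l1, which promotes decay of AU-rich mRNAs, fell by 0.36 on the log2 scale (1081 against 1398 CPM, limma adjusted p = 0.00015). Fabp5, a fatty acid binding protein, rose by 0.39 on the log2 scale (1042 ± 165 against 794 ± 115 CPM, limma adjusted p = 0.0024). The intermediate filament gene Vim and the nuclear factor genes Nfia and Nfib made up the other falls. Fabp7, a radial glia marker, was not past the threshold (5650 ± 1255 against 5320 ± 1365 CPM), and its sign changed without the Msx3 gate.

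Of 25 radial glia and astroglial genes, 10 fell and 3 rose, with a median log2 difference of -0.13, where 8.16% of genes outside the cycle lists were lower and 7.76% higher. Among those that fell were Slc1a2, a glutamate transporter (53.5 against 85.2 CPM), Ndrg2 (249 against 331) and Aldoc, a glycolytic enzyme of astroglia (35.2 against 56.0). Gdf10 rose by 0.28 on the log2 scale (352 against 288 CPM, limma adjusted p = 0.015), and Ddah1 by 0.50 (201 against 142 CPM). The counts were 2 lower and 1 higher after thinning, where 216 of all 8301 genes tested were lower. They ranged from 4 to 7 lower and from 1 to 3 higher with 1 library left out, with the fewest lower without RL e14 replicate 1. Immediate early genes, which also respond to dissociation, moved with these genes: 5 of 12 tested fell (Egr1, Junb, Fos, Jund and Ier2) and none rose. Their summed level was 1915 to 4263 CPM in cycling and 2117 to 6216 in non-cycling cells. Their part in the glial differences was not tested.

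Part of the genes of neuronal fate fell. Of 12 neuronal differentiation genes tested, 6 fell and none rose, with a median log2 difference of -0.45, and of 10 proneural genes 4 fell and none rose, where 7.83% of all genes tested were lower. Sox11, Gap43 and Insm1 of these lists did not pass and had log2 differences of 0.02, 0.08 and 0.20. Tubb3, the neuronal beta-tubulin, stood at 93.7, 82.5, 187 and 150 CPM in cycling cells. It stood at 175, 144, 282 and 226 in non-cycling cells, lower in every library (log2 difference -0.70 ± 0.08, limma adjusted p = 0.00017). Sox4, which promotes neuronal maturation, fell from 597 to 369 CPM, by 0.66 on the log2 scale (limma adjusted p = 0.00041). The proneural gene Atoh1, which granule cell precursors need, stood at 12.2, 77.5, 49.3 and 27.9 CPM against 50.5, 28.1, 123 and 43.3. It was lower in 3 of 4 libraries and not past the threshold (log2 difference -0.54, interval -1.37 to 0.30). Cells with 2 or more of 7 differentiation genes made up 40.4% ± 12.0 of the cycling and 34.5% ± 9.97 of the non-cycling side, higher in 4 of 4 libraries. After thinning they made up 9.66% ± 8.32 and 21.2% ± 6.62, with 0 of 10 cycling cells in RL e14 replicate 2. In RL e13 replicate 2 the cycling side stayed higher after thinning (18.6% against 17.2%). Leaving such cells out left 3 of 12 neuronal genes lower, and thinning left 1. Tubb3 stayed past the threshold in both, with log2 differences of -0.88 and -0.78.

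**Figure D2:**
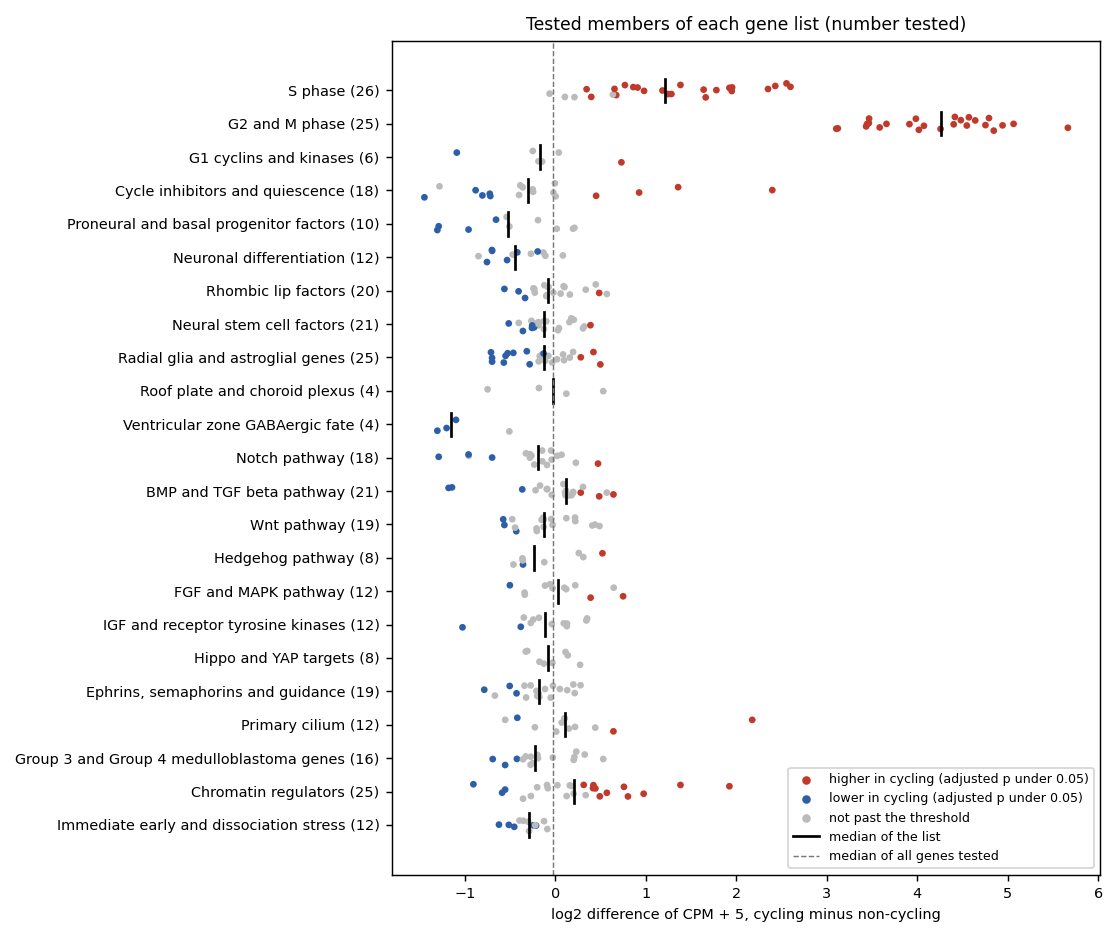
Log2 difference of CPM + 5, cycling minus non-cycling, for each tested member of 23 gene lists, 1 point per gene, where red and blue points passed the threshold, black bars are list medians and the dashed line is the median of all genes tested. The 25 G2 and M genes all lie to the right, while most fate and signalling lists have medians near the dashed line with single genes on either side.

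Of 4 genes of GABAergic ventricular zone fate that could be tested, 3 fell on the cycling side and none rose. Over all genes tested, 7.83% were lower and 11.4% higher. Ptf1a, the factor that specifies GABAergic neurons, stood at 1.38, 34.9, 35.3 and 11.8 CPM in cycling cells and at 27.4, 136, 34.4 and 30.6 in non-cycling cells. RL e13 replicate 1 showed almost no difference. The log2 difference was -1.30 ± 0.31 (limma adjusted p = 0.014) and -0.96 without RL e14 replicate 1, where the adjusted p was 0.076. Kirrel2, a cell adhesion gene of the same zone, stood at 19.3, 58.9, 136 and 55.7 CPM against 121, 220, 122 and 72.6. Its log2 difference of -1.10 ± 0.33 (limma adjusted p = 0.043) lost the threshold without RL e14 replicate 1 (adjusted p = 0.20) and without RL e14 replicate 2 (0.13). Tfap2b, a factor of GABAergic neurons, was the third member to fall, and lost the threshold without RL e13 replicate 2 (adjusted p = 0.076). After thinning none of the 4 passed, with log2 differences of -1.44 for Ptf1a, -1.02 for Kirrel2 and -1.52 for Tfap2b (limma adjusted p = 0.062, 0.085 and 0.066). Ptf1a was detected in 12.0% of cycling and 15.4% of non-cycling cells, against 0.298% of differentiating cells.

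Most rhombic lip factors did not pass the threshold. Of 20 tested, 3 fell and 1 rose, with a median log2 difference of -0.08. Over all genes tested, 7.83% were lower and 11.4% higher. Wls stood at 95.3, 70.4, 148 and 135 CPM in cycling and 136, 130, 220 and 176 in non-cycling cells, lower in every library. Its log2 difference was -0.56 ± 0.10 (limma adjusted p = 0.0019). It was -0.39 after thinning (adjusted p = 0.11) and -0.14 when Msx3 was dropped from the gate (adjusted p = 0.40). Meis1, a homeobox factor, fell by 0.33 on the log2 scale (218 against 276 CPM, limma adjusted p = 0.0057). Msx2, a target of BMP signalling, rose from 43.0 to 59 CPM (limma adjusted p = 0.031), and lost the threshold without RL e14 replicate 1, RL e13 replicate 1 or RL e13 replicate 2 (adjusted p = 0.098, 0.050 and 0.12). Zic4 fell (198 against 278 CPM, limma adjusted p = 0.037), and lost it without RL e14 replicate 1, RL e14 replicate 2 or RL e13 replicate 2 (adjusted p = 0.11, 0.079 and 0.077). Pax6, Zic1, Pax3 and Olig3 were not past the threshold, and Pax6 stood at 124, 230, 66.7 and 104 CPM against 106, 120, 77.5 and 76.6. None of 4 roof plate genes tested passed.

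Of 18 cycle inhibitors and quiescence genes tested, 4 rose, 5 fell and 9 did not pass, with a median log2 difference of -0.31, where 11.4% of all genes tested were higher and 7.83% lower. The inhibitors of Cdk4 and Cdk6, Cdkn2c and Cdkn2d, were higher in cycling cells. Cdkn2c stood at 35.5, 37.2, 19.1 and 32.7 CPM against 1.33, 2.71, 1.15 and 1.69, with no overlap (log2 difference 2.40 ± 0.21, limma adjusted p = 1.1e-05), and is also among the known cycle genes. Cdkn2d stood at 94.6, 82.5, 51.0 and 63.3 CPM against 34.5, 29.6, 16.4 and 21.5, also with no overlap (log2 difference 1.36 ± 0.12, limma adjusted p = 1.7e-05). Ccng2, a cyclin G gene, rose from 19.6 to 40.5 CPM with no overlap, by 0.93 on the log2 scale (limma adjusted p = 0.0051), and Cdkn1b, described below, was the other riser. The 5 that fell were Trp53inp1, Btg1, Btg2, Klf4 and Cdkn1c. Trp53inp1, a target of p53, stood at 19.2, 5.99, 18 and 17.7 CPM against 52.3, 59, 46.6 and 35.5, with no overlap (log2 difference -1.45 ± 0.25, limma adjusted p = 0.0020). Btg1 fell from 361 to 211 CPM and Btg2 from 176 to 105 (limma adjusted p = 6.2e-05 and 0.022).

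Mxd4, which pairs with Max in opposition to Myc (chromosome 5, 34173883 to 34187720), fell most among genes that were lower in all 4 libraries and reached 50 CPM on the higher side. It stood at 43.4, 39.7, 32.8 and 51.5 CPM in cycling and 135, 145, 96.0 and 103 in non-cycling cells, with no overlap. The log2 difference was -1.41 ± 0.14 (limma adjusted p = 3.0e-05) and stayed past the threshold in all 23 alternatives.

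Other inhibitors and the D cyclins were less steady. Cdkn1c, an inhibitor that accompanies cycle exit, stood at 165, 392, 506 and 216 CPM in cycling and 520, 793, 453 and 287 in non-cycling cells, higher on the cycling side in RL e13 replicate 1 alone. Its log2 difference of -0.72 ± 0.21 (limma adjusted p = 0.039) lost the threshold without either e14 library (adjusted p = 0.17 and 0.11). Cdkn1b rose (69.3 against 49.2 CPM, limma adjusted p = 0.034), and lost it without RL e14 replicate 2, RL e13 replicate 1 or RL e13 replicate 2. Ccnd2, a D cyclin, stood at 61.1, 28.6, 461 and 98.1 CPM in cycling and 260, 109, 468 and 148 in non-cycling cells. Its log2 difference was -1.09 ± 0.27 (limma adjusted p = 0.016). It was -0.79 without RL e14 replicate 1 and -0.87 without RL e14 replicate 2, past the threshold in neither, and 0.25 without the Msx3 gate, which turns the sign. Ccnd1 was not past the threshold (225 ± 71.5 against 256 ± 93.4 CPM).

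Signalling pathways beyond Notch gave single genes. Of 21 BMP and TGF beta genes, 3 rose and 3 fell, with a median log2 difference of 0.11. Over all genes tested, 11.4% were higher and 7.83% lower. Tgfb2, a TGF beta ligand, stood at 26.1, 21.0, 3.94 and 36.8 CPM in cycling and 62.9, 98.8, 12.8 and 58.5 in non-cycling cells, lower in every library (log2 difference -1.18 ± 0.21, limma adjusted p = 0.0025). Nog, a secreted BMP antagonist, rose from 24.9 ± 10.9 to 40.1 ± 9.69 CPM (limma adjusted p = 0.040) and lost the threshold with any 1 library left out. The BMP response genes Id1 and Id3 were not past the threshold, with intervals of -0.34 to 0.15 and -0.64 to 0.30 on the log2 scale. Of 19 Wnt genes 3 fell (Wls, Wnt5a and Nkd1) and none rose, where 7.83% of all genes tested were lower. The ligand Wnt5a lost the threshold without RL e13 replicate 1 or RL e13 replicate 2 (limma adjusted p = 0.068 and 0.093) and after thinning (log2 difference -0.29, adjusted p = 0.25). The feedback inhibitor Nkd1 stood at 166, 350, 280 and 211 CPM against 337, 317, 502 and 326, and lost the threshold without RL e14 replicate 1, RL e13 replicate 1 or RL e13 replicate 2. Axin2, a general Wnt target, was not past the threshold (111 against 121 CPM).

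Of 8 Hedgehog genes, the transducer Smo rose (45.9 ± 7.42 against 31.0 ± 9.07 CPM, limma adjusted p = 0.044) and the co-receptor Boc fell (60.4 ± 11.4 against 78.4 ± 11.7 CPM, limma adjusted p = 0.038). Both lost the threshold with any 1 library left out. The receptor and target Ptch1 was not past it (27.5 ± 12.5 against 23.2 ± 15.4 CPM), and Gli1, at 3.35 and 2.07 CPM, was too low to test. Of 12 FGF and MAPK genes 2 rose and 1 fell. Beside both lists, 11.4% of all genes tested were higher and 7.83% lower. Fgf13, an intracellular FGF family member, stood at 29.4, 33.8, 29.2 and 24.2 CPM against 15.8, 14.2, 14.1 and 16.9, with no overlap (log2 difference 0.75 ± 0.17, limma adjusted p = 0.011). It lost the threshold without RL e13 replicate 1 (adjusted p = 0.073). The Fgf13 log2 difference was 0.73 after thinning (limma adjusted p = 0.185) and 0.60 with a gate on other G2 and M genes (adjusted p = 0.19). Fgf15, the secreted FGF of neural progenitors, rose (87.6 against 66.9 CPM, limma adjusted p = 0.030), but its log2 difference was -0.07 after thinning.

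Of 12 IGF and receptor tyrosine kinase genes, Egfr and Igf1r fell, where 7.83% of all genes tested were lower. Egfr stood at 10.4, 10.9, 6.53 and 14.3 CPM in cycling and 33.4, 59.3, 8.40 and 23.3 in non-cycling cells (log2 difference -1.03 ± 0.27, limma adjusted p = 0.024). It lost the threshold without RL e14 replicate 1 and without RL e14 replicate 2 (adjusted p = 0.11 and 0.061). Igf1r stood at 140, 134, 136 and 147 CPM against 159, 225, 173 and 180, with no overlap (limma adjusted p = 0.021), and lost the threshold without RL e13 replicate 1 or RL e13 replicate 2. Its log2 difference was -0.10 after thinning. Of 19 guidance genes 3 fell, among them the Eph receptor Epha4 (63.6 ± 6.63 against 92.4 ± 9.21 CPM, limma adjusted p = 0.0073), which lost the threshold without RL e13 replicate 1. The Epha4 log2 difference was -0.36 after thinning (limma adjusted p = 0.29) and -0.14 with a gate on other G2 and M genes (adjusted p = 0.57). None of 8 Hippo genes passed with all libraries.

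Of 25 chromatin genes tested, 11 rose and 3 fell, with a median log2 difference of 0.20, where 11.4% of all genes tested were higher and 7.83% lower. Of the 11, 7 are also in the cycle lists (Ezh2, Dnmt1, Uhrf1, Cbx1, Cbx5, Hmgb1 and Hmgb3), and the other 4 were Suz12, Eed, Smarca5 and Cbx3. Ezh2, the methyltransferase of Polycomb complex PRC2, stood at 589, 485, 734 and 589 CPM in cycling and 294, 247, 364 and 301 in non-cycling cells, with no overlap (log2 difference 0.98 ± 0.05, limma adjusted p = 3.1e-07). Its partners Suz12 (166 against 110 CPM) and Eed (79.5 against 59.2) also rose. Dnmt1 and Uhrf1, which copy DNA methylation at replication, rose by 1.38 and 1.92 on the log2 scale. The members that fell were Kdm6b, a demethylase of the mark that Ezh2 makes (51.6 against 99.8 CPM, limma adjusted p = 0.0017), Rcor2 and Chd7. Kdm7a, another histone demethylase and no list member, stood at 24.6, 16.3, 32.2 and 23.9 CPM against 56.8, 81.2, 62.4 and 60.3 (log2 difference -1.28 ± 0.19, limma adjusted p = 0.00066).

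Of 16 genes altered in or marking Group 3 and Group 4 medulloblastoma, 3 fell and none rose, with a median log2 difference of -0.22, where 7.83% of all genes tested were lower. Chd7, a chromatin remodeller, stood at 121, 186, 206 and 189 CPM in cycling and 185, 305, 283 and 265 in non-cycling cells (log2 difference -0.55 ± 0.07, limma adjusted p = 0.00037). Kmt2d and Mycl fell too, and each lost the threshold in 3 of the 4 fits with a library left out. Otx2 (13.3 against 8.14 CPM), Mycn (129 against 148) and Cdk6 (79.1 against 95.8) were not past the threshold.

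Of the 10 highest genes outside the lists, several act in mitosis or replication and escaped the lists, such as Sgol1 and Sgol2a, which protect centromeric cohesion, and Dscc1, which acts in cohesion at replication forks. Sgol1 stood at 138, 110, 133 and 167 CPM against 4.79, 8.03, 6.06 and 6.86. The others were Prr11, C330027C09Rik, Lrr1, Shmt1, Fam111a, Gas2l3 and Lbr. The count of higher genes outside the lists therefore still holds cycle genes. Arl6ip1, listed for the cilium, and also among the known cycle genes, rose most of the 12 cilium genes tested (1136 ± 83.1 against 248 ± 29.3 CPM, limma adjusted p = 2.5e-08).

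**Figure D3:**
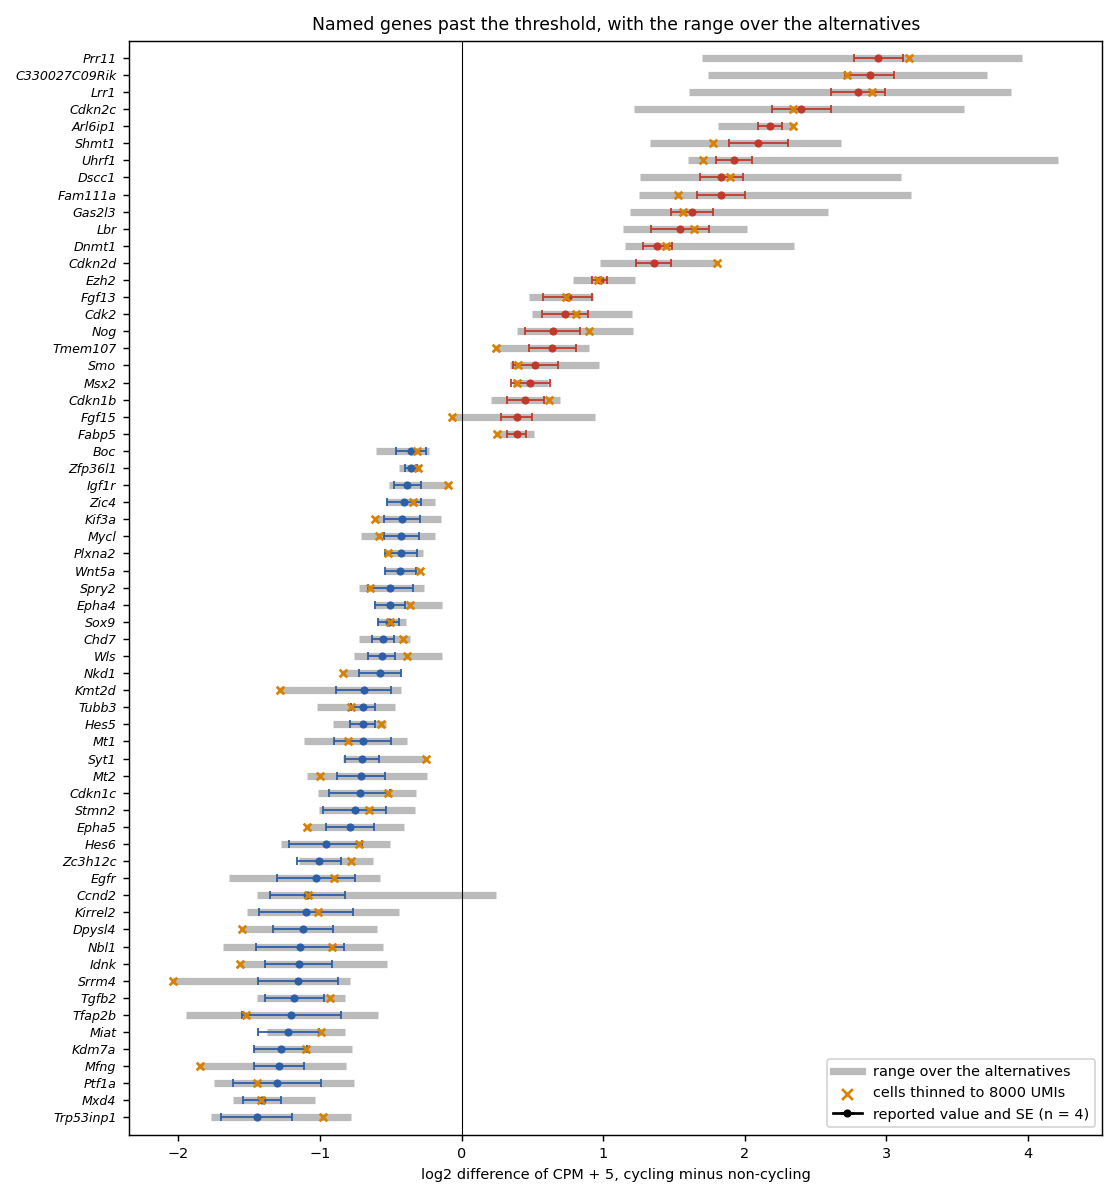
Log2 difference with SE (dots, n = 4 libraries) for the named genes past the threshold with a difference under 3, with the range over the alternatives (grey bars) and the value after thinning to 8000 UMIs (crosses). Bars of Ccnd2 and Fgf15 cross 0, while those of Hes5, Sox9, Mxd4 and Ezh2 stay on 1 side.

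Cells on the border of the gate stood between the sides for many of the genes that differed. Cells with exactly 1 gate gene lay between the 2 sides for 56.7% to 76.9% of the higher and 54.8% to 71.9% of the lower genes outside the lists, depending on the library. Their median position was 28.1% to 38.6% of the way from the non-cycling to the cycling level. These genes were chosen because the 2 sides differ, which by itself favours levels in between. The share over all genes tested was not computed, so nothing is concluded from these shares. Just inside the gate, cells with 1 Mki67 UMI held 64.6 ± 7.95 CPM of Mki67 and 232 ± 87.2 of Top2a, and these were 2 to 24 cells per library. Just outside, cells with only Mki67 held 150 ± 25.0 CPM of it, and cells with only Top2a held 114 ± 10.5 CPM of it. Mxd4 stood at 120 ± 23.9 CPM with neither gate gene, 81.9 ± 11.9 with only Mki67, 93.0 ± 22.0 with only Top2a, 66.0 ± 18 with 1 Mki67 UMI and 38.4 ± 5.82 with more. Hes5 stood at 797 ± 215, 462 ± 72.1, 593 ± 187, 422 ± 121 and 484 ± 76.1 CPM in the same order, with every class that had a gate gene below the mean of the non-cycling side. Cdkn2c stayed at 2.92 ± 2.21 CPM or less outside the gate. The gate chose these cells, and no test was made.

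**Figure D4:**
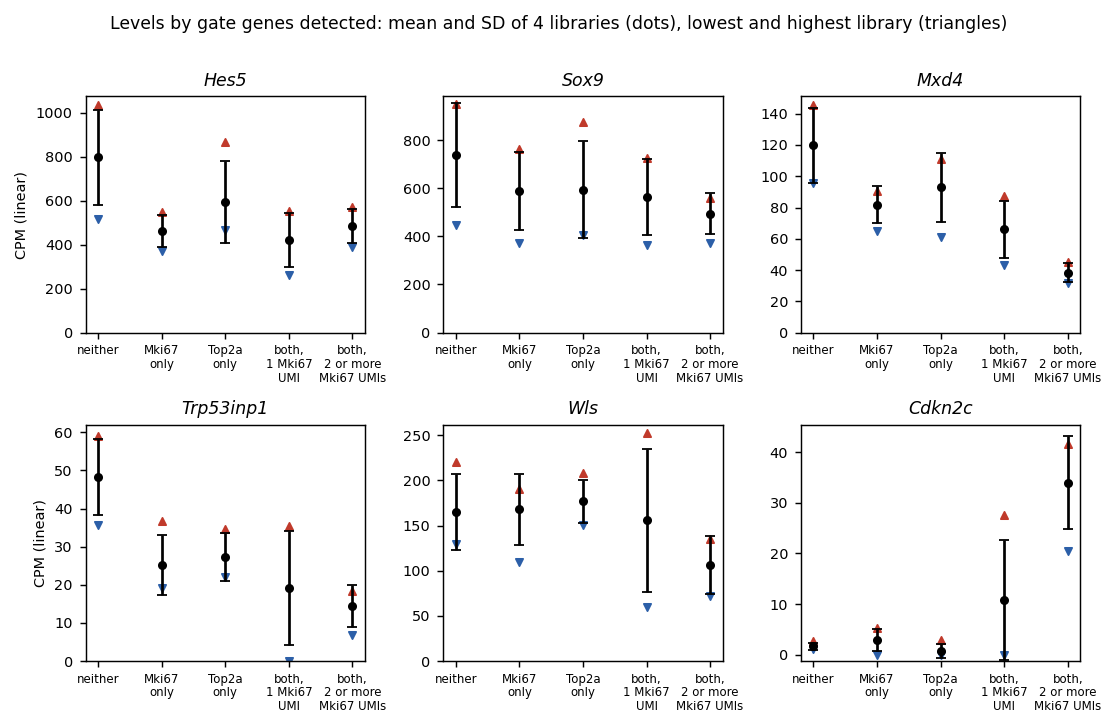
Levels in CPM on a linear axis by the gate genes detected, for 6 genes, where dots and bars are the mean and SD of 4 libraries and triangles the lowest and highest library. Mxd4 and Trp53inp1 are lowest where both gate genes are well detected, and Cdkn2c is low in all cells without both.

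The step from non-cycling to cycling was also compared between e14 and e13. By title no gene of 8365 passed (limma, lowest adjusted p = 0.72, for Kirrel2), while 423 had an unadjusted p under 0.05, and by age tag, where e13 is 1 library assumed to vary like the others, none passed and 46 had one. Kirrel2 stepped by -2.10 on the log2 scale at e14 and by -0.10 at e13, and Ccnd2 by -1.88 and -0.30 (limma adjusted p = 0.72 for both differences). Hes5 stepped by -0.92 and -0.48 (limma adjusted p = 0.87). The e14 libraries show the wider gap for each of these genes, and with 2 libraries per title the difference was not resolved. Kirrel2 and Ccnd2 had the lowest p-values of the named genes in this same comparison, so their gaps were picked from these data. Other named genes stepped further at e13, among them Nkd1 (-0.43 at e14 and -0.72 at e13) and Dll1 (-0.70 and -1.21). By chance about 1 gene in 20 has an unadjusted p under 0.05, so the 423 genes are not read as differences.

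A comparison with cells of the granule lineage was added after the cell numbers were known. Granule lineage cells had Atoh1 and Barhl1 detected and Sox2 not, and were split by the same 2 genes. RL e13 replicate 1 had 6 and 7 such cells and was left out, so 3 libraries entered. The step differed between the 2 kinds of cell for 48 of 8455 genes (0.568%), 19 with the higher and 29 with the lower step in progenitors. Ccnd2 stood at 62.6 against 172 CPM in progenitors (log2 step -1.44) and at 1127 against 1129 CPM in granule lineage cells (difference of steps -1.44 ± 0.23, limma adjusted p = 0.021). Wls stepped by -0.57 in progenitors and by 0.37 in granule lineage cells (limma adjusted p = 0.046). Rgs2, a regulator of G protein signalling, stepped by -0.60 and 0.95 (limma adjusted p = 0.0091). Mapt, the axonal protein tau, stepped by -0.18 in progenitors, where it was low on both sides, and by -1.99 in granule lineage cells (25 against 116 CPM). The granule lineage cells carried no Msx3 gate. Without that gate, the progenitor log2 difference with all libraries was 0.25 for Ccnd2 and -0.14 for Wls. In the left-out RL e13 replicate 1, Ccnd2 stepped by -0.023 in progenitors. The count was 6 without RL e13 replicate 2, 124 without RL e14 replicate 1 and 146 without RL e14 replicate 2, so it rests on which libraries enter.

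**Figure D5:**
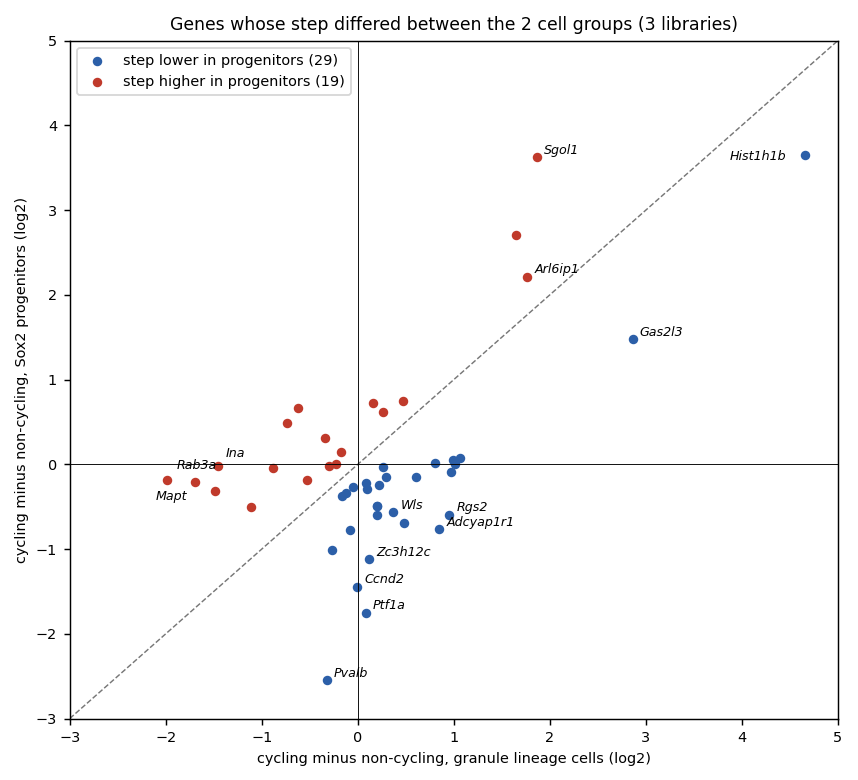
Cycling minus non-cycling step on the log2 scale in granule lineage cells (x axis) and Sox2 progenitors (y axis) for the 48 genes whose steps differed, from 3 libraries, with a dashed line at equal steps. Ccnd2 lies near 0 on the x axis and below -1 on the y axis, Ptf1a is nearly undetected in granule lineage cells (0.408 and 0.0966 CPM) so that its x value says nothing of a step, and Mapt is near 0 on the y axis and below -1 on the x axis.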

How the data were processed

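Single-cell RNA libraries of mouse cerebellum were made with 10x Chromium 3′ kits, and Cell Ranger and mm10 are named in the submitters' processing notes. The deposited matrix holds natural log values, made by the authors before deposit as ln(1 + 10000 × UMIs of a gene / UMIs of the cell). This form was checked on the file: every cell's back-transformed values sum to 10000, and 100% of values gave whole UMIs within 0.01. The matrix covers 15971 genes and 6987 cells. In it, 1 batch of 2676 cells has a name that matches no sample title and was not used in the comparisons. The e16 title is the only one without a matched batch. Filters and any removal of doublets before deposit are not given. No doublet caller was run, and an alternative left out the top 5% of cells by UMIs.

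Back-transformed values were averaged per side and library and scaled to CPM. Genes averaging at least 10 CPM were tested on log2(CPM + 5), where differences of low genes come out too small, with limma 3.58.1 in R 4.3.3, library as a block and Benjamini-Hochberg adjustment at 0.05. The 5 genes of the rule were not tested, and genes of the cycle lists only describe the gate. The script was tested on simulated data. RL e14 replicate 2 entered with 19 cycling cells, below the planned minimum of 20, a decision taken on cell numbers. A planned comparison at e16 was not run, because the rule found no cycling cell in the batch left for the e16 title. The differentiating cells used as a background had 4 or more of 7 differentiation genes and no Sox2, Mki67 or Top2a. Their shares are means of 3 libraries, and these cells were defined after the data were seen.

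Named genes were a set of 26 progenitor and cycle genes, the 10 highest and 10 lowest genes called outside the cycle lists with 1 sign in 4 of 4 libraries and 50 CPM or more on the higher side, and up to 3 called members of each fate, signalling, control, cilium, chromatin and disease list with the largest differences. A few list members outside this rule were named after their values were seen. Members and lists were chosen with earlier results of these data known. Each fit was repeated under 23 alternatives, 2 of them added after the data were seen.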

Additional observations from a re-analysis of the deposited data

Results flagged for a closer look

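Among 79 groups of 4 library values, 5 held a value far from the other 3, and chance gives about 1 in 20. Notch1 differed by 0.17 on the log2 scale in RL e14 replicate 1 and by -0.43 to -0.38 in the others. Idnk differed by -2.22 in RL e14 replicate 2 and by -0.88 to -0.64 in the others. In RL e13 replicate 1, Sgol2a differed by 4.07 against 3.58 to 3.63, and Gas2l3 by 2.07 against 1.43 to 1.51. RL e14 replicate 2 had 26.4% of its members on the cycling side, against 47.4% to 51.7%.

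The step from non-cycling to cycling cells differed between Sox2 progenitors and granule lineage cells for 7 named genes (limma, 3 libraries). Progenitors minus granule lineage cells, the log2 difference of steps was -1.83 for Ptf1a, -1.44 for Ccnd2, -1.39 for Gas2l3, -1.24 for Zc3h12c and -0.94 for Wls. It was 1.76 for Sgol1 and 0.44 for Arl6ip1. The granule lineage cells carried no Msx3 gate, on which the Ccnd2 and Wls steps in progenitors depend. Ptf1a stood at 0.408 and 0.0966 CPM in cycling and non-cycling granule lineage cells, where the pseudocount of 5 holds any step near 0, so its value restates the step in progenitors.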

How the results depend on the processing

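With all libraries 1608 genes passed the threshold, and outside the cycle lists 619 were higher and 651 lower. The total, the higher and the lower count were 740, 278 and 160 without the library block, 763, 256 and 216 after thinning, 1010, 358 and 338 without differentiating cells and 1016, 406 and 334 with a gate on other G2 and M genes. They were 2622, 991 and 1275 with profiles weighted by cells, and 860, 284 and 278 without roof plate, differentiating and Atoh1 cells. With no filter on low values the lower count was 349. With 1 library left out the total ranged from 1062 to 1704, the higher count from 383 to 684 and the lower count from 352 to 685. The comparison with granule lineage cells gave 48 genes, 18 with a pseudocount of 1, 92 with 20, and 6 to 146 with 1 library left out. RL e14 replicate 2 had 10 cycling cells after thinning, 11 without differentiating cells and 8 without roof plate, differentiating and Atoh1 cells. The cause of these moves was not tested. No paired analysis was possible because replicate numbers do not tie libraries of the 2 titles to each other, and the sides are already paired by library.

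The log2 difference changed sign for genes near 0 and for Ccnd2 and Fgf15. After thinning it was 0.0083 for Hes1, 0.045 for Id1, 0.091 for Id3 and -0.069 for Fgf15. Without the Msx3 gate it was 0.044 for Olig3, -0.054 for Fabp7 and 0.25 for Ccnd2. Without differentiating cells it was -0.028 for Fabp7, 0.0033 for Id3 and -0.070 for Fgf15. With the other gate it was 0.044 for Slc1a3, 0.059 for Ccnd1 and 0.077 for Id3. Without S phase cells on the non-cycling side it was 0.062 for Slc1a3, 0.39 for Ccnd1, 0.0086 for Id1 and 0.17 for Id3. Weighted by cells it was 0.031 for Id1, and without roof plate, differentiating and Atoh1 cells 0.077 for Olig3 and 0.10 for Id3. With 1 library left out the Id1 difference ranged from -0.26 to 0.046 and that of Id3 from -0.31 to 0.048, the positive values without RL e14 replicate 2.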
